A study of Mus musculus with 12 samples.

Results

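The collagen chain genes encode the α chains from which every collagen is built. They were taken by name, as all genes whose symbol reads Col, a type number, the letter a and a chain number. This rule found 44 of the 19938 genes that the array annotation names by a single symbol. The rule itself used no expression value, but collagen was chosen as a subject with earlier results of these data known. By collagen class they comprised 11 fibrillar, 6 basement membrane, 9 FACIT (fibril-associated collagens with interrupted triple helices) and 6 beaded filament chains. The other chains were 3 short-chain network, 4 transmembrane and 2 multiplexin chains, the anchoring fibril chain Col7a1, and Col26a1 and Col28a1, which were put in no class. The tumors grew from J2A cells, a line of aortic myofibroblasts from C57BL/6 mice deficient for p16, p19 and Vnn1, which were grafted under the skin of the back of nude mice. All cells carried oncogenic H-RasV12 fused to GFP. R tumors carried Ras with a mock insert, VdR tumors Ras with a catalytically deficient Vnn1, and VR tumors Ras with intact Vnn1, a membrane enzyme that splits pantetheine. There were 4 tumors of each group, numbered 1, 2, 4 and 5, and RNA was measured on Affymetrix mouse gene arrays. All 12 tumors came from 1 line, both forms of Vnn1 were driven by a viral promoter, and the sources do not tell whether cells were transduced anew for each tumor, so the spread between tumors is that of grafts. The labels let the time of harvest follow tumor growth, whereas the methods name a single day. RNA came from sorted cells by the labels' extraction text, but from the whole tumor mass by the methods.

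Collagen chains are made in the endoplasmic reticulum, hydroxylated on proline and lysine, and wound in groups of 3 into a triple helix that the cell secretes. Fibrillar collagens are then trimmed at both ends and assemble into cross-linked fibrils, type IV collagen forms the network of basement membranes, FACIT chains sit on the surface of fibrils, and type VI collagen forms beaded microfibrils around cells. Fibroblasts and myofibroblasts are the main source of fibrillar collagen in connective tissue, and collagen 1 was used in the study as a mark of mesenchymal differentiation. The question for these genes was therefore whether collagen RNA differed between tumors with intact, deficient and no Vnn1, and in which classes.

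Several collagen chains lie beside a partner in the mouse genome, and neighbours were both called higher in VR than R tumors in 2 places. Col4a6 and Col4a5 lie head to head on chromosome X, 1274 bases apart, and Col6a2 and Col6a1 lie in the same direction on chromosome 10, 85161 bases apart. The stretches before the annotated start of these genes are shown together with those of Col1a2 and Col3a1, because both pairs and these main fibrillar chains are described in full. They were taken from RefSeq (GRCm38.p6) and run 5′ to 3′ toward the gene. They span chr10:76726045-76726294 on the minus strand for Col6a1, chr10:76623631-76623880 on the minus strand for Col6a2, chrX:141475169-141475369 on the plus strand for Col4a5, chrX:141474096-141474326 on the minus strand for Col4a6, chr6:4505368-4505617 on the plus strand for Col1a2 and chr1:45311288-45311537 on the plus strand for Col3a1. Capitals mark exact matches, on either strand, to 1 of 3 motifs, namely TATAAA (the letters of a TATA box), CCAAT (those of a CCAAT box) and GGGCGG (those of a GC box).
Col6a1: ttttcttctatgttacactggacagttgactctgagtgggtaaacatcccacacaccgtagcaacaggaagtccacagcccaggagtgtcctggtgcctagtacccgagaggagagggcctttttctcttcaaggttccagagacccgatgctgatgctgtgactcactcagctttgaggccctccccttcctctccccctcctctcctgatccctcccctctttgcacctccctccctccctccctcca
Col6a2: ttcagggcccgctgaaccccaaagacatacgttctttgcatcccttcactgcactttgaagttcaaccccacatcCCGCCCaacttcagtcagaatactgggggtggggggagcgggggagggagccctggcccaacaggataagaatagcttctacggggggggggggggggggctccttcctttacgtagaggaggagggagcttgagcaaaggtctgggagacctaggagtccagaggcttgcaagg
Col4a5: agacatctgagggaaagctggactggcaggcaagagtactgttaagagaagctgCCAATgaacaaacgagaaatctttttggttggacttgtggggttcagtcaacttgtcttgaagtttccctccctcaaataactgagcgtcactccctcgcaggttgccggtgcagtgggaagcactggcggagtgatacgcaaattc
Col4a6: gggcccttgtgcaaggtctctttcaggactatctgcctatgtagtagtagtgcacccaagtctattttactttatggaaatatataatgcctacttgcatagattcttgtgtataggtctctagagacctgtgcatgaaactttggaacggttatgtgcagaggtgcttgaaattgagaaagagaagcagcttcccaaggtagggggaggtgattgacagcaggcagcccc
Col1a2: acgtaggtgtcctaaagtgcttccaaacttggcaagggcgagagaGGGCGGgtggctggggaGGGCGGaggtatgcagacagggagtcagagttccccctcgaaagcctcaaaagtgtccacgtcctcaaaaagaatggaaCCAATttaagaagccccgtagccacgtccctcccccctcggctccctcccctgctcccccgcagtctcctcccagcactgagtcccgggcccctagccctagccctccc
Col3a1: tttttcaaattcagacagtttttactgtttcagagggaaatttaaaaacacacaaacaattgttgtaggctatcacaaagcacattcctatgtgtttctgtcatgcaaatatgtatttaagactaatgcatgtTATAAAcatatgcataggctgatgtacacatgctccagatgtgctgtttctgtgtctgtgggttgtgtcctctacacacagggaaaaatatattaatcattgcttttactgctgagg
None of the 3 motifs was shared by all of these stretches, and those of Col6a1 and Col4a6 held none as printed. The stretches of Col4a5 and Col4a6 were ended early, at 201 and 231 of 250 bases, where the annotated gene begins, and a match to GGGCGG on either strand lies past the end (Col4a5) or across it (Col4a6) in their full windows, which the counts below use. A RefSeq window of 250 bases before the start was given for 35 of the 44 chains, in 38 windows, and a gene counted if any of its windows held the motif. Col6a2 also has a window at a second start, which is not printed. It holds matches to GGGCGG on the other strand 67, 15 and 11 bases before that start. GGGCGG was found in 21 of these 35 and in 35.4% of all genes with a window. It was as frequent in the 10 chains called higher in VR tumors (6 of 10) as in the 25 others (15 of 25). CCAAT was found in 37.1% of the chains and 37.5% of all genes, and TATAAA in 14.3% of both. A match is a match of letters only.

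The arrays had similar medians, between 6.66 and 6.77 on the log2 scale, and all 44 chains passed the filter on low values, set at 5.38, the 25th percentile of all values. Passing it does not show that a chain is expressed. Col4a3 (6.30 to 6.61), Col8a2 (6.19 to 6.59) and Col19a1 (6.20 to 6.54) read below every array median. For such chains a small change does not tell steady RNA from absent RNA. Vnn1 spanned 5.53 to 5.83 among R tumors, 11.37 to 11.73 among VdR tumors and 10.54 to 11.26 among VR tumors, so both Vnn1 groups carried the gene as labelled, although the array does not tell intact from deficient Vnn1. Markers of skeletal muscle, a tissue that lies under the graft, averaged 8.49 to 9.37 in R tumors 2 and 5, VdR tumors 2 and 4 and VR tumor 2, and 6.64 to 6.80 in the other tumors. Counts are therefore also given without these 5 tumors, which left 2 R, 2 VdR and 3 VR tumors. With so few tumors a call can be lost even where the difference stays the same, so a lost call alone does not show dependence on muscle. Markers of fat averaged 7.18 to 7.27 in VdR tumors 1 and 2 and VR tumor 1, and 6.28 to 6.52 in the other tumors. Among them Retn, the fat hormone resistin, read 7.43 to 7.59 in these 3 tumors and 5.79 to 5.96 in the rest. Adipoq, Plin1, Lep and Cidec were also higher in each of these 3 tumors than in any other. Fabp4, of the same list, did not separate them (9.33 to 9.50, against 8.15 to 9.57 in the rest). Counts are given without these 3 tumors as well. Markers of keratinocytes, cartilage and Schwann cells averaged between 5.98 and 6.84 in every tumor, but single markers differed from these means. Sox9, of the cartilage list, read 11.23 to 11.87, and 1 of the 5 cartilage markers tested was called lower in VR than R tumors. Epcam, of the keratinocyte list, read 7.20 in VR tumor 1 and 5.48 to 6.25 in the other tumors. The arrays measured bulk RNA, so more cells of a type and more RNA per cell cannot be told apart. Comparisons of VR and of VdR tumors with R tumors share the same R tumors.

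In VR tumors, 12 of the 44 chains were higher than in R tumors and 1 was lower, by limma with an adjusted p under 0.05. Of all 16573 genes tested, 13.6% were called higher and 7.48% lower in this comparison. The median log2 fold change of the chains was 0.12, against -0.015 for all genes. The chains that rose were Col1a1, Col1a2, Col3a1 and Col5a1 of the fibrillar class, Col4a5 and Col4a6 of the basement membrane class, Col14a1 and Col16a1 of the FACIT class, Col6a1 and Col6a2 of the beaded class, Col15a1 and Col28a1. The chain that fell was Col6a4. In VdR tumors, 2 chains were higher than in R tumors (6.58% of all genes) and 1 was lower (2.81% of all genes), and the median of the chains was 0.050. Between VR and VdR tumors, 2 chains were higher in VR (1.77% of all genes), and 0 were lower (1.67% of all genes), with a median of 0.052. At an unadjusted p under 0.05, 18, 12 and 12 chains differed in these 3 comparisons by limma (40.9%, 27.3% and 27.3%, against 34.8%, 23.1% and 19.2% of all genes), and 17, 9 and 8 by a test that took each gene alone. Without the 5 tumors with muscle markers, 8 chains were higher in VR than R tumors, of which 7 were among the 12, and 2 were lower, while 0 were called in the other comparisons. Without the 3 tumors with fat markers, 13 chains were higher in VR than R tumors, the 12 among them, and 1 was lower, whereas 0 were called in VdR against R tumors, where 2 VdR tumors remained, and 1 was higher in VR than in VdR tumors. With 1 tumor left out at a time, 11 to 14 chains were higher in VR than R tumors, and 11 of the 12, all but Col15a1, were called each time. The smaller counts moved more. Without VdR tumor 5, 6 chains were higher in VdR than in R tumors, and 1 was without R tumor 1, 2 or 5, VdR tumor 1, 2 or 4 or VR tumor 1. The count of 2 higher in VR than in VdR tumors became 0 without VdR tumor 4 or 5 or VR tumor 2, 4 or 5, and 1 without VdR tumor 1. The count of 1 lower became 0 in VR against R tumors without R tumor 1 or 4 or VR tumor 1 or 2, and in VdR against R tumors without R tumor 1 or 4, VdR tumor 1, 2 or 5 or VR tumor 2 or 4. The mean of all 44 chains was 8.73, 8.63, 8.67 and 8.46 in R tumors 1, 2, 4 and 5, 8.76, 8.66, 8.80 and 8.60 in VdR tumors and 8.79, 8.72, 8.90 and 8.91 in VR tumors. On this mean the groups overlapped, R tumor 5 was the lowest of all tumors, and VR tumors 4 and 5 were the highest.

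**Figure D1:**
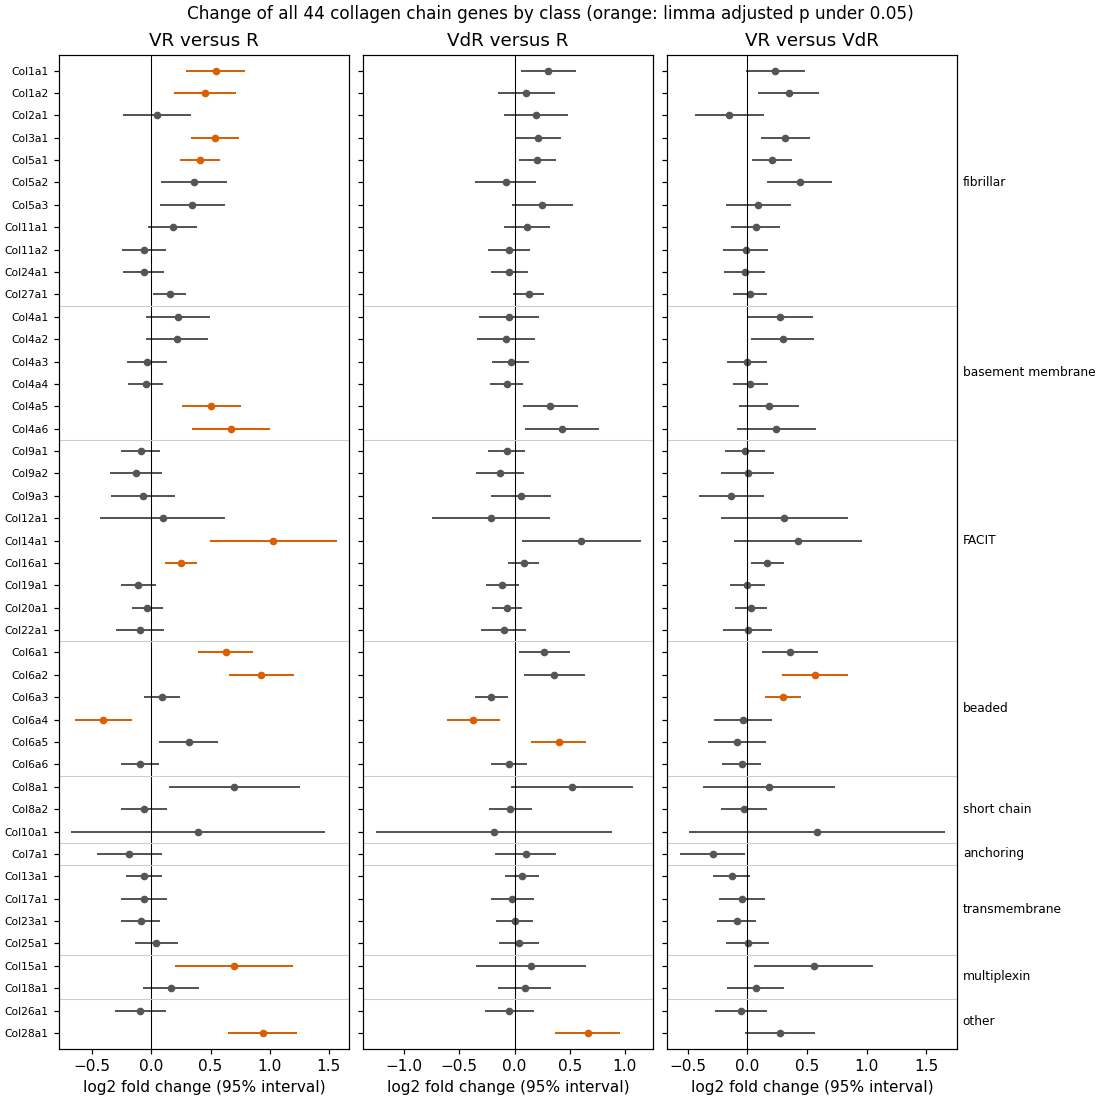
Log2 fold change (horizontal axis) of each of the 44 collagen chain genes (rows, by class) in the 3 comparisons, with its 95% interval from limma. Orange marks an adjusted p under 0.05, which 13 chains reached in VR versus R, 3 in VdR versus R and 2 in VR versus VdR.

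Among the fibrillar chains, both chains of type I collagen, type III collagen and the α1 chain of type V collagen rose in VR tumors, and 7 of the 11 chains were not called. Values are given in the order of tumors 1, 2, 4 and 5 here and below. Col1a1, the α1 chain of type I collagen, the main collagen of skin, tendon and bone, read 12.72, 12.68, 12.44 and 12.26 in R tumors, 12.85, 12.86, 13.02 and 12.58 in VdR tumors and 13.0004, 12.997, 13.17 and 13.10 in VR tumors. All VR tumors lay above all R tumors, while VdR tumors lay between and overlapped both. The difference between VR and R tumors was 1.46-fold (log2 fold change 0.54, SE 0.11, adjusted p = 0.00465), and that between VdR and R tumors, 0.31 on the log2 scale, did not pass (adjusted p = 0.107). It passed without VdR tumor 5, the lowest VdR tumor, at 0.39 (adjusted p = 0.0412).

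Col1a2, the second chain of type I collagen, read 11.92, 11.98, 11.62 and 11.52 in R tumors, 11.91, 11.92, 11.98 and 11.67 in VdR tumors and 12.03, 12.22, 12.43 and 12.17 in VR tumors. VdR tumors stayed within the range of R tumors, and all VR tumors lay above both groups. VR tumors were 1.37-fold higher than R tumors (log2 fold change 0.45, SE 0.12, adjusted p = 0.0151), and 0.35 higher than VdR tumors on the log2 scale (adjusted p = 0.117). Without the 5 tumors with muscle markers the VR and R tumors differed by 0.44, which did not pass (adjusted p = 0.0744). Type III collagen is a trimer of a single chain that forms fine fibers together with type I. Its gene, Col3a1, read 11.54, 11.53, 11.33 and 11.56 in R tumors, 11.74, 11.77, 11.78 and 11.54 in VdR tumors and 11.81, 12.08, 12.23 and 11.97 in VR tumors. The 4 VR tumors again lay above all tumors of the other groups, and R tumor 4 stood below the other R tumors. The change against R tumors was 1.45-fold (log2 fold change 0.54, SE 0.09, adjusted p = 0.00169). Against VdR tumors it was 0.32 (adjusted p = 0.0721), which passed without VR tumor 1, the lowest of its group (0.39, adjusted p = 0.0336).

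Type V collagen is a minor fibrillar collagen that starts fibrils and limits their width. Its α1 chain, Col5a1, read 9.31, 9.32, 9.11 and 9.12 in R tumors, 9.46, 9.41, 9.52 and 9.29 in VdR tumors and 9.50, 9.61, 9.70 and 9.68 in VR tumors. The groups VR and R did not overlap, VR being higher, and the rise was 1.33-fold (log2 fold change 0.41, SE 0.07, adjusted p = 0.00232). The α2 chain, Col5a2, read 9.85, 9.88, 9.53 and 9.34 in R tumors, 9.45, 9.59, 9.73 and 9.51 in VdR tumors and 9.75, 10.13, 10.09 and 10.06 in VR tumors. Its VR tumors lay above all VdR tumors but overlapped the R tumors, of which tumors 1 and 2 were high and tumors 4 and 5 low. The differences of 0.36 from R and 0.44 from VdR tumors missed the threshold (adjusted p = 0.0561 and 0.0707). Each passed when VR tumor 1 was left out (adjusted p = 0.0249 and 0.0387). The first also passed without R tumor 1 or 2 (adjusted p = 0.0457 and 0.0305) and the second without R tumor 5 (adjusted p = 0.0390). The third chain of type V, Col5a3, differed by 0.34 between VR and R tumors (95% interval 0.08 to 0.61, adjusted p = 0.0640). All VR tumors lay above all R tumors for Col5a3, and it passed without R tumor 2 (0.41, adjusted p = 0.0468) or VdR tumor 5 (adjusted p = 0.0452) and with the tumor number as a block (adjusted p = 0.0231). The remaining fibrillar chains, Col2a1, Col11a1, Col11a2, Col24a1 and Col27a1, had log2 fold changes between -0.07 and 0.18 in VR against R tumors and were not called in any comparison. Col2a1, Col11a1 and Col11a2 are chains of cartilage fibrils.

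**Figure D2:**
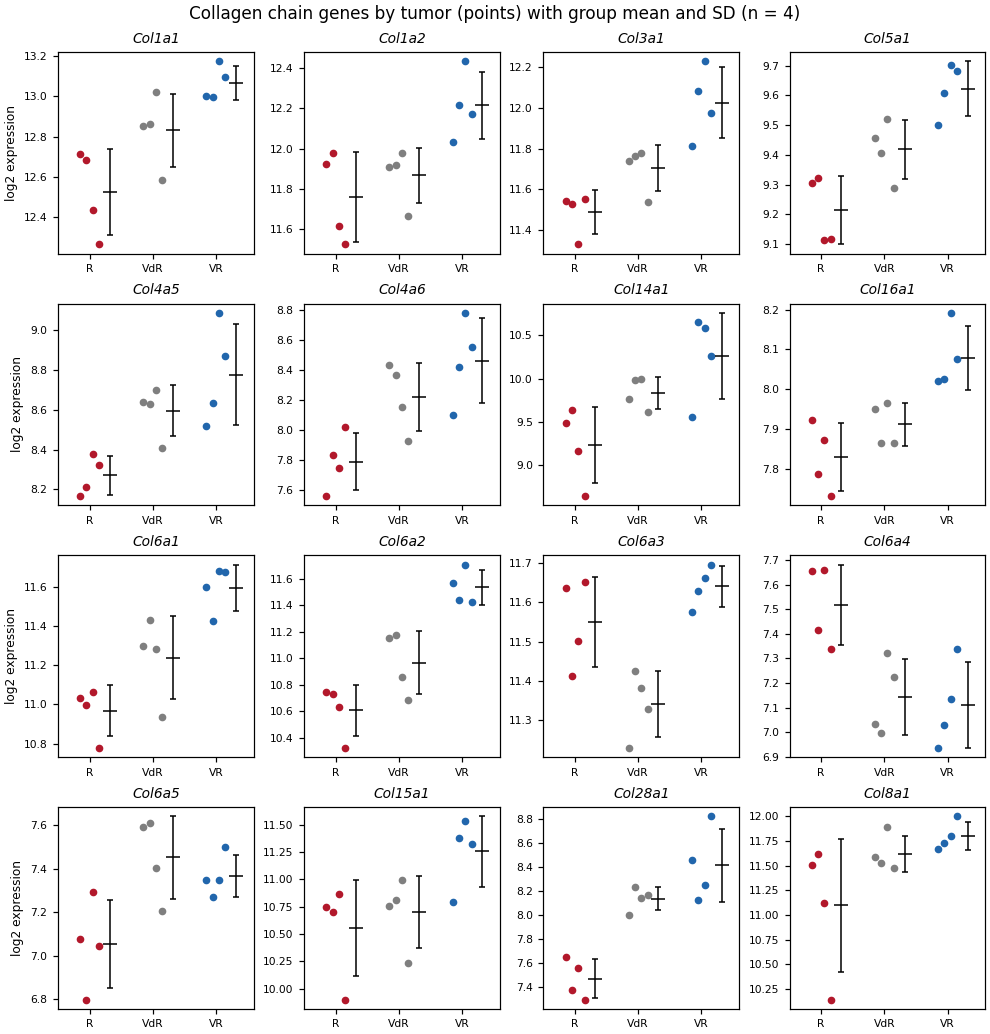
Log2 expression (vertical axis) of 16 collagen chain genes in each R, VdR and VR tumor (points), with the mean and SD of each group (bars, n = 4). Points of Col1a2, Col3a1 and Col6a2 in VR tumors lie above all other tumors, Col6a4 is highest in R tumors, and R tumor 5 is low for Col8a1 (10.15) and Col15a1 (9.90). Each panel has its own axis.

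In the basement membrane class the pair Col4a5 and Col4a6 rose in VR tumors, and the other pairs were not called. The α5 and α6 chains join into a trimer found in basement membranes of smooth muscle and skin, whereas α1 and α2 form the type IV collagen of most basement membranes. Col4a5 read 8.17, 8.21, 8.38 and 8.32 in R tumors, 8.64, 8.63, 8.70 and 8.41 in VdR tumors and 8.52, 8.63, 9.09 and 8.87 in VR tumors. All VR and all VdR tumors lay above all R tumors. The rise was 1.42-fold in VR tumors (log2 fold change 0.51, SE 0.11, adjusted p = 0.00752) and missed the threshold in VdR tumors (0.32, adjusted p = 0.0955), where it passed without VR tumor 4 (adjusted p = 0.0482). Without the 5 tumors with muscle markers the difference between VR and R was 0.55 and did not pass (adjusted p = 0.0591). For Col4a6 the values were 7.56, 7.84, 7.75 and 8.02 in R tumors, 8.43, 8.37, 8.16 and 7.93 in VdR tumors and 8.10, 8.42, 8.78 and 8.55 in VR tumors. VR tumors again lay above all R tumors, and VdR tumor 5 fell below R tumor 5. VR tumors were 1.59-fold above R tumors (log2 fold change 0.67, SE 0.15, adjusted p = 0.00745). The difference of 0.43 between VdR and R tumors missed the threshold (adjusted p = 0.0955) and passed without VdR tumor 5 (0.53, adjusted p = 0.0498).

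The common pair was not called. Col4a1 read 10.43, 10.30, 10.37 and 10.09 in R tumors, 10.20, 10.28, 10.53 and 9.99 in VdR tumors and 10.43, 10.31, 10.63 and 10.73 in VR tumors, and Col4a2 read 10.65, 10.42, 10.51 and 10.42, 10.36, 10.41, 10.74 and 10.16 and 10.63, 10.52, 10.79 and 10.92 in the same groups. For both genes the groups overlapped, VdR tumor 5 was the lowest of all tumors, and VR tumors 4 and 5 were the highest. The log2 difference between VR and R tumors was 0.23 for Col4a1 (95% interval -0.04 to 0.49) and 0.22 for Col4a2 (95% interval -0.04 to 0.47), and neither passed. Against VdR tumors the difference was 0.28 for Col4a1 (adjusted p = 0.234) and 0.30 for Col4a2 (adjusted p = 0.187), and 0.50 and 0.52 without the tumors with muscle markers (adjusted p = 0.107 and 0.104). Whether this pair and the pair of Col4a5 and Col4a6 changed differently was not tested. Col4a1 and Col4a2 lie head to head on chromosome 8 with overlapping starts. Col4a3 and Col4a4, which lie in the same way on chromosome 1 and are known from the glomerular basement membrane of the kidney, changed by -0.04 and -0.05 and were not called.

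Of the 9 FACIT chains, Col14a1 and Col16a1 rose in VR tumors, and the median of the class was -0.07. Col14a1, a chain of type XIV collagen on the surface of type I fibrils, read 9.48, 9.64, 9.16 and 8.64 in R tumors, 9.76, 9.99, 9.99 and 9.62 in VdR tumors and 9.56, 10.65, 10.58 and 10.26 in VR tumors. VR tumor 1 lay within the range of the R tumors and the other 3 VR tumors lay above all other tumors. The change of 2.04-fold was the largest of the 44 chains (log2 fold change 1.03, SE 0.24, adjusted p = 0.0107). Without the 5 tumors with muscle markers it was 0.81 and did not pass (adjusted p = 0.0756). VdR tumors lay 0.61 above R tumors, which did not pass (adjusted p = 0.154). Col16a1, the chain of another FACIT collagen of connective tissue, read 7.92, 7.79, 7.87 and 7.73 in R tumors, 7.95, 7.86, 7.96 and 7.87 in VdR tumors and 8.02, 8.03, 8.19 and 8.08 in VR tumors. Its 4 VR tumors lay above all R and VdR tumors, by a small amount (1.19-fold over R, log2 fold change 0.25, SE 0.06, adjusted p = 0.0107). The change was 0.20 without the 5 tumors with muscle markers and did not pass (adjusted p = 0.104).

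Col12a1, the chain of type XII collagen, which also coats type I fibrils, read 10.51, 10.26, 9.48 and 10.32 in R tumors, 9.90, 10.46, 10.05 and 9.30 in VdR tumors and 10.07, 10.35, 10.11 and 10.41 in VR tumors. R tumor 4 and VdR tumor 5 were low and the groups overlapped. The difference between VR and R tumors was 0.09 (95% interval -0.43 to 0.62), and it turned to -0.13 without R tumor 4. The other 6 FACIT chains, Col9a1, Col9a2, Col9a3, Col19a1, Col20a1 and Col22a1, had log2 fold changes between -0.13 and -0.03 in VR against R tumors and were not called.

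The beaded filament chains moved in different directions. The α1, α2 and α3 chains form the common type VI collagen, and the α4, α5 and α6 chains are alternatives to α3. Col6a2, the α2 chain, read 10.74, 10.73, 10.63 and 10.32 in R tumors, 11.15, 11.17, 10.86 and 10.68 in VdR tumors and 11.57, 11.44, 11.71 and 11.42 in VR tumors. Every VR tumor lay above every other tumor. VdR tumor 5 lay within the range of the R tumors, and the other VdR tumors lay above that range. VR tumors were 1.91-fold above R tumors (log2 fold change 0.93, SE 0.12, adjusted p = 4.51e-04) and 1.48-fold above VdR tumors (log2 fold change 0.57, SE 0.12, adjusted p = 0.0312). The second call was lost when VdR tumor 4 or 5 or any 1 of the VR tumors was left out, with adjusted p between 0.0519 and 0.0913. VdR tumors lay 0.36 above R tumors (adjusted p = 0.0935), which passed without VdR tumor 5 (0.46, adjusted p = 0.0334) and with the tumor number as a block (adjusted p = 0.0366). Col6a1, the α1 chain, read 11.03, 10.999, 11.06 and 10.78 in R tumors, 11.30, 11.43, 11.28 and 10.94 in VdR tumors and 11.60, 11.43, 11.68 and 11.68 in VR tumors. VR tumors lay above all R tumors and, except for VR tumor 2, above all VdR tumors, and VdR tumor 5 fell among the R tumors. The rise over R tumors was 1.55-fold (log2 fold change 0.63, SE 0.10, adjusted p = 0.00151), and the difference from VdR tumors was 0.36 (adjusted p = 0.0778). VdR tumors lay 0.27 above R tumors (adjusted p = 0.134), which passed without VdR tumor 5 (0.37, adjusted p = 0.0208).

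Their partner Col6a3, the α3 chain, read 11.64, 11.41, 11.50 and 11.65 in R tumors, 11.23, 11.42, 11.38 and 11.33 in VdR tumors and 11.57, 11.63, 11.66 and 11.70 in VR tumors. VR tumors lay within the range of the R tumors or just above it, and the difference from R tumors was 0.09 (95% interval -0.05 to 0.23, adjusted p = 0.342). VdR tumors had the lowest mean, although VdR tumor 2 lay above R tumor 2, and all VR tumors lay above all VdR tumors (1.23-fold, log2 fold change 0.30, SE 0.07, adjusted p = 0.0312). This call was lost when VdR tumor 1, 4 or 5 or VR tumor 2, 4 or 5 was left out, with adjusted p between 0.0651 and 0.0877. The difference of -0.21 between VdR and R tumors missed the threshold (adjusted p = 0.0658) and passed without R tumor 2 (-0.26, adjusted p = 0.0295).

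Col6a4 read 7.66, 7.42, 7.66 and 7.34 in R tumors, 7.03, 6.996, 7.32 and 7.23 in VdR tumors and 6.94, 7.03, 7.14 and 7.34 in VR tumors. Every VdR tumor lay below every R tumor, and VR tumor 5 just reached the lowest R tumor. It fell by 0.41 on the log2 scale in VR tumors (SE 0.11, adjusted p = 0.0176) and by 0.37 in VdR tumors (SE 0.11, adjusted p = 0.0468). The call in VR tumors was lost without R tumor 1 or 4 or VR tumor 1 or 2 (adjusted p from 0.0502 to 0.0568). That in VdR tumors was lost in 8 of the 12 fits that left out 1 tumor (adjusted p up to 0.136), and without the tumors with fat markers the change was -0.24 (adjusted p = 0.372). Col6a5, its neighbour on chromosome 9, read 7.08, 6.80, 7.29 and 7.05 in R tumors, 7.59, 7.61, 7.40 and 7.20 in VdR tumors and 7.35, 7.27, 7.35 and 7.501 in VR tumors. R tumor 4 overlapped the other groups. Col6a5 was 1.32-fold higher in VdR than in R tumors (log2 fold change 0.40, SE 0.11, adjusted p = 0.0393), a call that was lost in 8 of the 12 fits that left out 1 tumor and, at 0.21, without the tumors with muscle markers (adjusted p = 0.417). It was also lost without the tumors with fat markers (0.25, adjusted p = 0.410) and with the tumor number as a block (adjusted p = 0.0645). The difference between VR and R tumors, 0.31, missed the threshold (adjusted p = 0.0604) and passed without R tumor 4 or VdR tumor 5 (adjusted p = 0.0303 and 0.0420).

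A second Col6a5 probeset, with a lower mean, read 6.59, 6.25, 6.71 and 6.31 in R tumors, 7.67, 7.83, 7.27 and 6.90 in VdR tumors and 7.14, 7.32, 7.04 and 7.61 in VR tumors, so that all VdR and all VR tumors lay above all R tumors. On this probeset the log2 fold change was 0.96 in VdR (adjusted p = 0.00758) and 0.82 in VR tumors (adjusted p = 0.00977). Col6a6, the third gene of this row on chromosome 9, changed by -0.10 in VR and -0.05 in VdR tumors, and was not called.

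**Figure D3:**
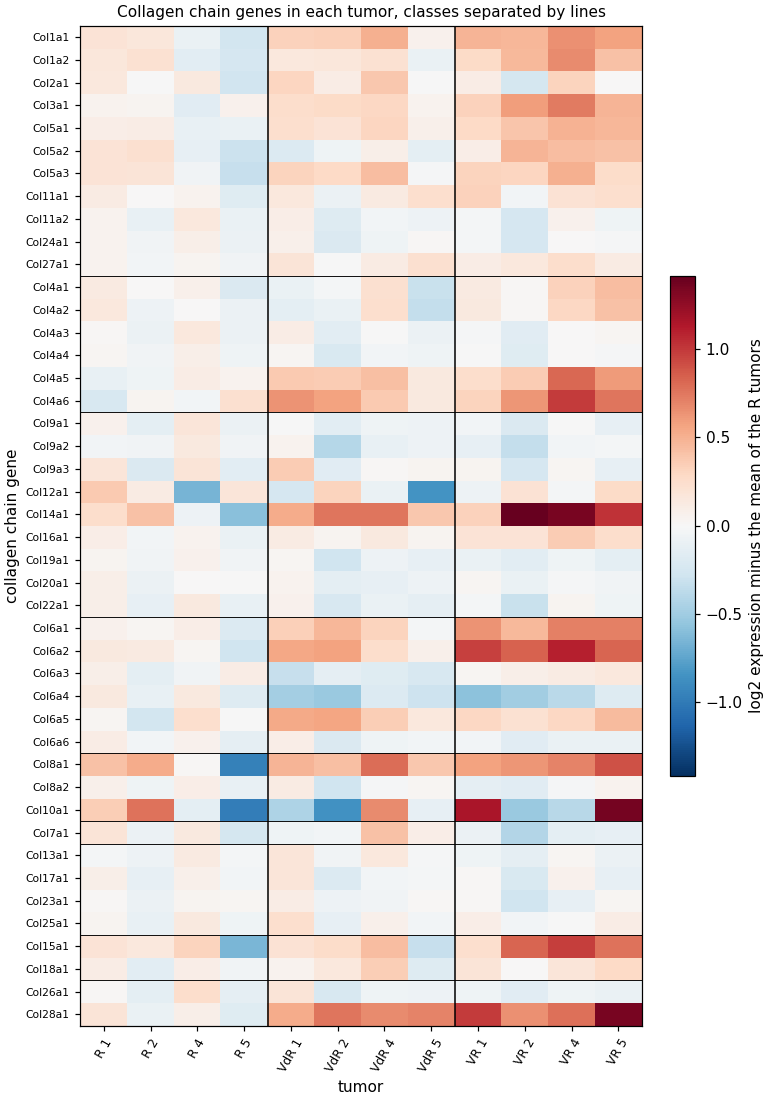
Log2 expression of the 44 collagen chain genes (rows, classes separated by lines) in each of the 12 tumors (columns), minus the mean of the 4 R tumors (color scale). VR tumors are red for Col6a1, Col6a2 and Col28a1 in all 4 tumors, whereas Col14a1 and Col15a1 are weaker in VR tumor 1, and Col10a1 varies within every group.

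Outside these classes, Col28a1 rose in both groups with Vnn1. Col28a1, the chain of a type found around peripheral nerves, read 7.65, 7.38, 7.56 and 7.30 in R tumors, 7.999, 8.23, 8.14 and 8.17 in VdR tumors and 8.46, 8.12, 8.25 and 8.82 in VR tumors. All VdR and all VR tumors lay above all R tumors. The change was 1.92-fold in VR (log2 fold change 0.94, SE 0.13, adjusted p = 5.88e-04) and 1.58-fold in VdR tumors (log2 fold change 0.66, SE 0.13, adjusted p = 0.00742), and VR and VdR tumors differed by 0.28 (adjusted p = 0.277). In VdR tumors the call was lost without the tumors with muscle markers (0.48, adjusted p = 0.145) or with fat markers (0.68, adjusted p = 0.0952).

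Multiplexins lie beside basement membranes. Col15a1, one of them, read 10.75, 10.70, 10.86 and 9.90 in R tumors, 10.76, 10.82, 10.995 and 10.23 in VdR tumors and 10.79, 11.38, 11.53 and 11.32 in VR tumors. VR tumor 1 lay within the range of the R tumors, and R tumor 5 stood far below the others. The difference was 1.63-fold (log2 fold change 0.70, SE 0.23, adjusted p = 0.0440). It did not pass without R tumor 5 (0.48, adjusted p = 0.0881), and the call was also lost without R tumor 1 or 2, VdR tumor 1 or 2 or VR tumor 2, 4 or 5 (adjusted p up to 0.115). Without the tumors with muscle markers it was 0.41 (adjusted p = 0.238). Col18a1, the other multiplexin, whose end is released as endostatin, read 11.02, 10.75, 11.002 and 10.86 in R tumors, 10.96, 11.06, 11.26 and 10.72 in VdR tumors and 11.10, 10.91, 11.08 and 11.19 in VR tumors. The groups overlapped and the difference between VR and R tumors was 0.16 (95% interval -0.07 to 0.39).

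The short-chain collagens form networks in vessel walls, the cornea and growing cartilage. Col8a1 read 11.51, 11.62, 11.12 and 10.15 in R tumors, 11.58, 11.53, 11.89 and 11.48 in VdR tumors and 11.67, 11.73, 11.80 and 11.999 in VR tumors. Every VR tumor lay above all R tumors, of which tumor 5 was far below the rest, and the difference of 1.62-fold missed the threshold (log2 fold change 0.70, SE 0.25, adjusted p = 0.0672). It passed without R tumor 2 (0.87, adjusted p = 0.0285) and, at 0.51, without the tumors with muscle markers (adjusted p = 0.0429). Col8a2, the second chain of type VIII, changed by -0.06 (95% interval -0.25 to 0.12). Col10a1, the collagen of hypertrophic cartilage, spanned 7.04 to 8.79 among R tumors, 7.17 to 8.69 among VdR tumors and 7.49 to 9.37 among VR tumors, and its difference of 0.40 lay well within this spread (95% interval -0.67 to 1.46).

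Col7a1, which makes the anchoring fibrils that hold epidermis to dermis, read 9.05, 8.78, 8.999 and 8.62 in R tumors, 8.80, 8.82, 9.28 and 8.95 in VdR tumors and 8.77, 8.45, 8.73 and 8.75 in VR tumors. All VR tumors lay below all VdR tumors, and VR tumor 2 stood below the rest of its group. The difference between VR and VdR tumors was -0.29 (adjusted p = 0.220) and that between VR and R tumors -0.19 (adjusted p = 0.294). The second was -0.28 without the tumors with muscle markers and then passed (adjusted p = 0.0342). The transmembrane chains Col13a1, Col17a1, Col23a1 and Col25a1 had log2 fold changes between -0.09 and 0.04 in VR against R tumors, and 0 of the 4 was called in any comparison. Col23a1, shown because its probeset had the highest mean of these, which does not rank the transcripts, read 7.75, 7.66, 7.78 and 7.77 in R tumors, 7.84, 7.67, 7.69 and 7.75 in VdR tumors and 7.75, 7.45, 7.62 and 7.77 in VR tumors, with overlapping groups. Col26a1 changed by -0.09 and was not called.

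The genes that modify, process, cross-link, bind and degrade collagen comprised 47 measured genes, of which 46 were tested. In VR tumors 13 of these were higher than in R tumors and 3 lower, in VdR tumors 4 were higher and 2 lower, and between VR and VdR tumors 4 were higher in VR and 0 lower. At an unadjusted p under 0.05, 22, 16 and 13 differed (47.8%, 34.8% and 28.3%, against 34.8%, 23.1% and 19.2% of all genes). Their median log2 fold changes were 0.10, 0.014 and 0.056 in the 3 comparisons, against -0.015, 0.0038 and -0.018 for all genes. Of all genes, 13.6% and 7.48% were called higher and lower in the first comparison, 6.58% and 2.81% in the second and 1.77% and 1.67% in the third, so that the lower count in VR tumors (3 of 46) and the higher count in VdR tumors (4 of 46) lay near these shares. Without the tumors with muscle markers 7 of the 13 stayed higher in VR than R tumors. The calls of Crtap, P3h1, Loxl4, Itga1, Itga10 and Ddr2 and the lower call of Loxl3 in that comparison were lost (adjusted p from 0.0501 to 0.205). The log2 fold changes of Crtap (0.27, against 0.23 with all tumors) and Loxl3 (-0.33 against -0.29) were no smaller. Neither were those of Ddr2 (0.21 against 0.18) and P3h1 (0.18 in both). Those of Loxl4 (0.44 against 0.49), Itga1 (0.99 against 1.05) and Itga10, an integrin chain of a collagen receptor (0.15 against 0.20), were smaller. With all tumors Itga10 was at the edge of the threshold (adjusted p = 0.0481). When 1 tumor was left out, it was called only without VdR tumor 2 or 4 or VR tumor 5. Without the tumors with fat markers, 0 of the 46 were called in VdR against R tumors.

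Of 19 genes of hydroxylation, folding and export, 3 were higher and 1 lower in VR than R tumors, near the shares of all genes (13.6% and 7.48%). P3h2, a prolyl 3-hydroxylase, read 7.07, 7.29, 6.93 and 7.93 in R tumors, 8.54, 8.31, 7.03 and 8.27 in VdR tumors and 9.33, 8.24, 8.49 and 8.43 in VR tumors. All VR tumors lay above all R tumors, and VdR tumors followed except VdR tumor 4, which lay among the R tumors. The rise in VR tumors was 2.50-fold (log2 fold change 1.32, SE 0.33, adjusted p = 0.0142), and the difference of 0.74 in VdR tumors passed only without VdR tumor 4 among the fits that left out 1 tumor (1.07, adjusted p = 0.0295), and also without the tumors with muscle markers (1.40, adjusted p = 0.0270). Crtap, which joins P3h1 in the 3-hydroxylation complex, rose slightly in VR (log2 fold change 0.23, SE 0.06, adjusted p = 0.0131) and VdR tumors (log2 fold change 0.26, SE 0.06, adjusted p = 0.0130). Its partner P3h1 was called in VR tumors only at the edge of the threshold (log2 fold change 0.18, SE 0.06, adjusted p = 0.0496), and the call was lost in 11 of the 12 fits that left out 1 tumor (adjusted p up to 0.130). P4ha1, a catalytic subunit of prolyl 4-hydroxylase, read 11.63, 11.23, 11.61 and 10.67 in R tumors, 10.60, 10.55, 11.28 and 10.71 in VdR tumors and 10.65, 10.55, 10.67 and 10.74 in VR tumors. R tumor 5 lay within the range of the VR tumors and the other R tumors lay above them. P4ha1 fell by 0.63 in VR tumors (SE 0.20, adjusted p = 0.0430), and the call was lost in 9 of the 12 fits that left out 1 tumor (adjusted p up to 0.126). In VdR tumors it differed by -0.50 (adjusted p = 0.155), which passed without R tumor 5 (-0.71, adjusted p = 0.0163), with array weights (-0.73, adjusted p = 0.0115) and without the tumors with muscle markers (-0.96, adjusted p = 0.00114). The catalytic subunit P4ha3 read 8.81, 8.91, 8.13 and 8.27 in R tumors, 8.62, 8.31, 7.51 and 8.07 in VdR tumors and 9.13, 9.20, 8.96 and 9.005 in VR tumors. Here the VR tumors lay above all other tumors, and VR tumors were 1.93-fold above VdR tumors (log2 fold change 0.95, SE 0.22, adjusted p = 0.0392). Mia3, which loads procollagen for export from the endoplasmic reticulum, was 1.25-fold above VdR tumors (log2 fold change 0.32, SE 0.08, adjusted p = 0.0478). The call of P4ha3 was lost without VdR tumor 2, 4 or 5 or any 1 of the VR tumors (adjusted p up to 0.0953), and that of Mia3 in 11 of the 12 fits that left out 1 tumor (adjusted p up to 0.123). Serpinh1, the collagen chaperone of the endoplasmic reticulum, differed by 0.14 between VR and R tumors and was not called (adjusted p = 0.144).

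Of 7 genes of procollagen processing, 3 were higher in VR than R tumors (13.6% of all genes). Pcolce2, an enhancer of the removal of the C-terminal propeptide, read 8.04, 8.47, 7.30 and 8.12 in R tumors, 9.50, 9.57, 8.80 and 8.89 in VdR tumors and 9.28, 9.98, 9.90 and 9.87 in VR tumors. All VdR and VR tumors lay above all R tumors, and the changes of 3.42-fold in VR (log2 fold change 1.78, SE 0.25, adjusted p = 6.45e-04) and 2.31-fold in VdR tumors (log2 fold change 1.21, SE 0.25, adjusted p = 0.00990) were the largest rises of the 46 genes in each comparison. The second was 0.86 on the log2 scale without the tumors with fat markers and did not pass (adjusted p = 0.127). The related enhancer Pcolce read 12.16, 12.17, 12.15 and 12.46 in R tumors, 12.45, 12.45, 12.45 and 12.55 in VdR tumors and 12.48, 12.64, 12.70 and 12.61 in VR tumors. R tumor 5 was high in its group, and all VR tumors lay above all R tumors (log2 fold change 0.37, SE 0.07, adjusted p = 0.00455). The difference of 0.24 in VdR tumors missed the threshold (adjusted p = 0.0647) and passed without R tumor 5 (0.32, adjusted p = 0.00700). Adamts14, which removes the N-terminal propeptide, rose as well (log2 fold change 0.30, SE 0.07, adjusted p = 0.00797), while Bmp1, the C-proteinase itself, differed by -0.03 and was not called.

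**Figure D4:**
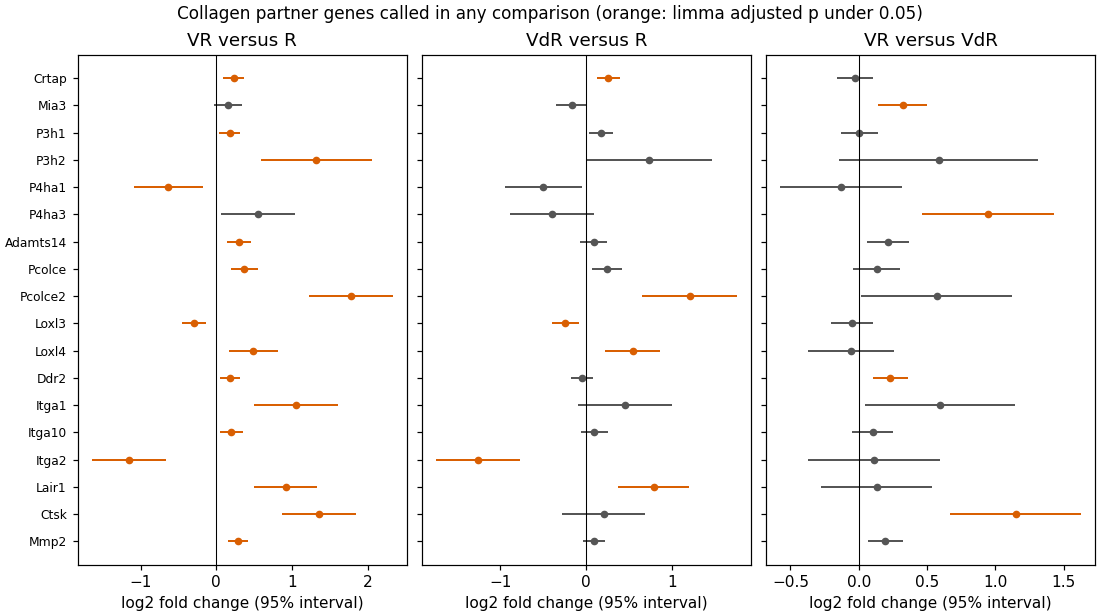
Log2 fold change (horizontal axis, with the 95% interval from limma) of the 18 collagen partner genes called in at least 1 of the 3 comparisons. Orange marks an adjusted p under 0.05, reached by 16 genes in VR versus R, 6 in VdR versus R and 4 in VR versus VdR.

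Of the 5 cross-linking enzymes, Loxl4 rose (log2 fold change 0.49, SE 0.14, adjusted p = 0.0297) and Loxl3 fell (log2 fold change -0.29, SE 0.07, adjusted p = 0.00966) in VR tumors, and Lox, the lysyl oxidase best known for cross-linking fibrillar collagen, was not called (0.22, adjusted p = 0.482). The call of Loxl4 was lost without R tumor 4 or 5 or VR tumor 1, 2 or 4 (adjusted p up to 0.0786). Both genes moved in the same direction in VdR tumors (0.54 for Loxl4, adjusted p = 0.0326, and -0.24 for Loxl3, adjusted p = 0.0417). These calls were lost in 6 (Loxl4) and 9 (Loxl3) of the 12 fits that left out 1 tumor (adjusted p up to 0.094 and 0.116), and without the tumors with fat markers Loxl4 differed by 0.23 in VdR tumors (adjusted p = 0.292). Loxl1 changed by 0.23 (adjusted p = 0.0835), and it passed without R tumor 2 (0.29, adjusted p = 0.0365) or VdR tumor 4 (adjusted p = 0.0478). Tgm2, a transglutaminase, changed by 0.20 (adjusted p = 0.285), which passed only without VR tumor 1 among such fits (0.33, adjusted p = 0.04995).

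Among the 9 collagen receptors, the integrin chains Itga1 and Itga2 moved in opposite directions. Itga1, which pairs with the β1 chain into a receptor that favors type IV collagen, read 8.06, 7.68, 8.12 and 7.59 in R tumors, 7.84, 8.62, 8.30 and 8.50 in VdR tumors and 8.63, 8.41, 8.93 and 9.68 in VR tumors. All VR tumors lay above all R tumors (log2 fold change 1.05, SE 0.25, adjusted p = 0.0106), and the difference was 0.99 without the tumors with muscle markers and then did not pass (adjusted p = 0.0635). Itga2, whose receptor favors type I collagen, read 10.17, 9.42, 10.64 and 9.74 in R tumors, 8.57, 8.64, 8.82 and 8.88 in VdR tumors and 8.62, 8.59, 8.96 and 9.19 in VR tumors. All R tumors lay above all other tumors, and Itga2 fell by 1.16 in VR (SE 0.22, adjusted p = 0.00334) and by 1.27 in VdR tumors (SE 0.22, adjusted p = 0.00369). Lair1, an inhibitory collagen receptor of immune cells, rose in VR (log2 fold change 0.92, SE 0.18, adjusted p = 0.00466) and VdR tumors (log2 fold change 0.79, SE 0.18, adjusted p = 0.0187). The second call was lost without R tumor 1 or 4 or VdR tumor 4 (adjusted p up to 0.0568). Ddr2, a receptor kinase for fibrillar collagen, was higher in VR than in VdR tumors (log2 fold change 0.23, SE 0.06, adjusted p = 0.0447) and R tumors (log2 fold change 0.18, SE 0.06, adjusted p = 0.0346), calls that were lost in 10 and 6 of the 12 fits that left out 1 tumor (adjusted p up to 0.119 and 0.0961).

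Of 6 collagen-degrading enzymes tested, 2 were higher in VR than R tumors (13.6% of all genes). Ctsk, cathepsin K, which cuts the collagen helix, read 7.68, 7.57, 7.74 and 7.55 in R tumors, 7.27, 8.26, 7.96 and 7.88 in VdR tumors and 8.33, 9.23, 9.22 and 9.19 in VR tumors. Each VR tumor lay above all other tumors, and VR tumor 1 stood below the rest of its group. VR tumors were 2.56-fold above R tumors (log2 fold change 1.35, SE 0.22, adjusted p = 0.00131) and 2.22-fold above VdR tumors (log2 fold change 1.15, SE 0.22, adjusted p = 0.0198). The second call was lost without VR tumor 2, 4 or 5 (adjusted p up to 0.0665). Mmp2, a gelatinase, rose (log2 fold change 0.29, SE 0.05, adjusted p = 0.00319). Mmp13, the interstitial collagenase of mice, read 10.11, 9.39, 9.72 and 9.09 in R tumors, 7.81, 9.36, 9.64 and 7.69 in VdR tumors and 8.46, 8.88, 8.51 and 8.90 in VR tumors. The VR tumors lay below all R tumors, while VdR tumors 1 and 5 were low and VdR tumors 2 and 4 were among the R tumors. The difference of -0.89 between VR and R tumors did not pass (adjusted p = 0.133), and without the tumors with muscle markers it was -1.29 and passed (adjusted p = 0.00285). The difference of -0.95 between VdR and R tumors (adjusted p = 0.168) passed without VdR tumor 4 (-1.29, adjusted p = 0.0485) and without the tumors with muscle markers (-2.17, adjusted p = 0.00141).

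Of the markers of other cells, those of macrophages separated both groups with Vnn1 from R tumors. The 10 markers of fibroblasts and myofibroblasts, the labelled cell type, all passed the filter on low values, which alone does not show expression. Of these, 4 were higher in VR than R tumors (Myl9, Pdgfra, Pdgfrb and Thy1), 2 in VdR than in R tumors and 1 in VR than in VdR tumors. On their mean, R tumors spanned 10.10 to 10.62, whereas VdR tumors spanned 10.48 to 10.68, VR tumors spanned 10.53 to 10.84, and R tumor 5 was again the lowest. Of 10 macrophage markers, 7 were higher in VR and 9 in VdR than in R tumors, and 0 differed between VR and VdR tumors (2 at an unadjusted p under 0.05). Their mean ranged from 8.89 to 9.18 among R tumors, while VdR tumors spanned 9.88 to 10.15 and VR tumors 9.75 to 9.95. Of 8 endothelial markers, 2 were higher in VR than R tumors and 1 in VR than in VdR tumors, and R tumors averaged 8.68 to 9.27 on these, VdR tumors 8.77 to 9.08 and VR tumors 9.18 to 9.51. Of all genes, 13.6% were called higher in VR than R tumors, 6.58% in VdR than R tumors and 1.77% in VR than in VdR tumors. In VR against R tumors each of these 3 lists also held 1 negative change, not called. These were Cnn1 (-0.55), Mertk (-0.27) and Cldn5 (-0.54). Of 6 pericyte markers, only Rgs5 was called against R tumors, and it fell in VR and in VdR tumors. The list did not move as 1, with 3 positive and 3 negative changes in VR against R tumors (median 0.020). In VdR against R tumors 1 was positive and 5 were negative. All 6 were positive in VR against VdR tumors, where 1 was called higher. The part of these cells in the collagen values was not tested.

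**Figure D5:**
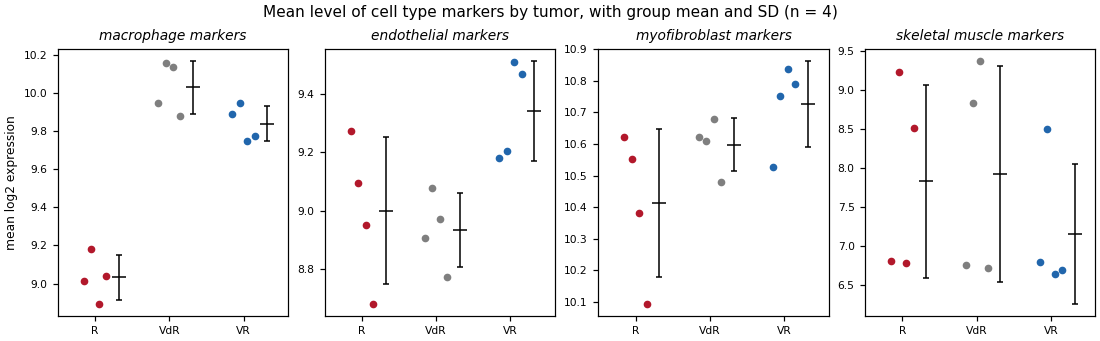
Mean log2 expression (vertical axis) of the macrophage, endothelial, myofibroblast and skeletal muscle markers in each R, VdR and VR tumor (points), with the mean and SD of each group (bars, n = 4). Macrophage markers are at 9.75 or higher in all VdR and VR tumors and at 9.18 or lower in all R tumors, and muscle markers are high in 5 tumors spread over the groups.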

How the data were processed

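RNA of 12 tumors, 4 per group, was measured on Affymetrix mouse gene arrays. The authors normalized all arrays together by RMA in the oligo package (named in the submitters' processing notes, version not given in the sources used here) and deposited log2 expression values per probeset. RMA brings all arrays to one distribution, so an overall change in RNA content is hidden. No scan date or batch was given in the sources used here.

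Groups and tumor numbers were taken from the labels. Of 35556 probesets, 21789 had 1 gene symbol, 1621 several and 12146 none. Only the first were named, and the probeset with the highest mean stood for each gene. A second Col6a5 and a second Col6a6 probeset were not used in the main comparison. All 44 chains matched a RefSeq gene of the same symbol. The 16573 genes that exceeded the 25th percentile of the table on 4 or more arrays entered the tests.

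One limma model (version 3.58.1, lmFit and eBayes, under R 4.3.3) held all 12 arrays and gave each comparison, with p-values adjusted by Benjamini-Hochberg over all genes tested at a threshold of 0.05. The methods name no test for single genes on the arrays. Fold changes are differences of group means of log2 values, and limma's intervals are at 95%. p-values measure the spread between grafts of 1 line, and the number of arrays limits the precision. On simulated data for all 16573 genes, tested as VR versus R, the fit recovered 43 of 50 genes changed 1.5-fold and all 50 at each of 2-, 3- and 4-fold, with 8 false calls among 201.

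The members and lists were chosen with earlier results of these data known. Named with values were the chains called in any comparison, the type I and III chains, the chain with the highest mean of each class, partner chains of 1 trimer, the 3 uncalled chains with the largest change in VR versus R, the 4 genes with the lowest adjusted p in VR versus R of each partner list and any called in VR versus VdR, of which the text gives part. Serpinh1, Bmp1, Lox, Itga10 and Col5a3 were added after their values were seen, as were chains named only in ranges. Each tumor was left out in turn, and other settings were tried: array weights or trended moderation, the tumor number as block, a fit on the compared groups alone, cyclic loess or median centring of arrays, averaging a gene's probesets, a filter that was stricter or absent, calls only past a 1.5-fold change, and the methods' t-test (named there for other assays). Leaving out the tumors with muscle markers averaging above 8 or with fat markers averaging above 7, and the second Col6a5 probeset, were added after seeing the data. Levels of different probesets were compared only to choose the probeset of a gene and the chain of a class to show, which does not rank transcripts. Figures were drawn with matplotlib 3.10.9.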

Additional observations from a re-analysis of the deposited data

Results flagged for a closer look

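In 11 of 141 groups of 4 tumors tested, 1 tumor stood apart from the other 3 by Dixon's criterion, which chance alone meets in about 1 of 20 groups. For the collagen chains these were Col15a1 in R tumor 5 (9.90, others 10.70 to 10.86), Col3a1 in R tumor 4 (11.33, others 11.53 to 11.56) and Col7a1 in VR tumor 2 (8.45, others 8.73 to 8.77). R tumor 5 also stood apart for Pcolce (12.46, others 12.15 to 12.17) and P3h1 (9.71, others 9.82 to 9.84). VdR tumor 5 stood apart for Pcolce (12.55, others 12.45 and below) and Ddr2 (11.50, others 11.61 to 11.63). VR tumor 1 was low for Pcolce2 (9.28, others 9.87 to 9.98) and Ctsk (8.33, others 9.19 to 9.23). VR tumor 4 was high for Mmp2 (13.07, others 12.89 to 12.91), and VdR tumor 4 was high for Loxl1 (10.89, others 10.58 to 10.62).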

How the results depend on the processing

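Across 26 alternatives, Col28a1, Col6a1 and Col6a2 kept their call in VR over R tumors each time, and 8 others of the 12 when any 1 tumor was left out. With a minimum change of 1.5-fold, 6 chains were higher in VR than R tumors, 1 in VdR than R and 0 in VR than in VdR, and 0 were lower in VR or VdR than in R. With the methods' t-test and Benjamini-Hochberg adjustment the counts were 7, 1 and 0 higher and 0 lower. Without the tumors with muscle markers 2 chains were lower in VR than in R, 0 were higher and 0 lower in VdR than in R, and 0 were higher in VR than in VdR. Without the tumors with fat markers 0 were higher and 0 lower in VdR than in R, and 1 was higher in VR than in VdR. Array weights gave 5 chains higher in VR than in VdR and 2 lower in each of VR and VdR than in R. Centring left 1 chain higher in VdR than in R. Chains lower there numbered 2 with cyclic loess and 0 with no filter, trended moderation or only the groups compared. Leaving out 1 tumor gave 11 to 14 chains higher and 0 to 1 lower in VR than in R, 1 to 6 higher and 0 to 1 lower in VdR than in R, and 0 to 3 higher and 0 lower in VR than in VdR.

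Partner genes higher in VR than in R (13) numbered 5 with the minimum change, 7 with the t-test and 7 without the muscle tumors. Those lower (3) numbered 5 with array weights and 0 with the t-test. For VdR against R, the 4 higher became 7 with array weights, 2 with the minimum change and 1 with the t-test. The 2 lower became 6 with array weights, 1 with the minimum change or the t-test and 5 without the muscle tumors. Both became 0 without the fat tumors. The 4 higher in VR than in VdR became 2 with centring, only the groups compared, the minimum change or without the fat tumors, and 0 with the t-test or without the muscle tumors. A stricter filter, trended moderation or array weights gave 1 lower in VR than in VdR. Leaving out 1 tumor gave 9 to 14 higher and 2 to 4 lower in VR than in R, 2 to 5 and 1 to 4 in VdR than in R, and 0 to 4 and 0 to 1 in VR than in VdR.

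The deviations of same-numbered tumors from their group means had correlations from -0.15 to 0.40, so some were negative, and 3 of 12 tumors matched their own number best. These values do not settle whether the numbers pair tumors, so results with the number as a block are also given. With the replicate block, chains called higher numbered 13, 2 and 2 in VR versus R, VdR versus R and VR versus VdR, and partner genes higher in VR than in VdR numbered 2 and lower 1. Of the 2 chains in VdR versus R, Col6a5 lost its call under the block and Col6a2 gained one. Of single values, Col12a1 in VR versus R turned to -0.11 with array weights and ranged from -0.13 (without R tumor 4) to 0.22 when 1 tumor was left out, and Mmp14 ranged from -0.12 to 0.0044 (without R tumor 2), all uncalled. The share of higher genes among all calls moved from 70.1% to 59.0% with cyclic loess for VdR versus R and from 51.4% to 62.7% with centring for VR versus VdR. The cause of these differences was not tested.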
